A study of Arabidopsis thaliana with 4 samples.

Results

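IAA29 and WES1 are auxin early response genes, that is, genes whose transcripts are known to accumulate soon after auxin is supplied. IAA29 (AT4G32280) and WES1 (AT4G27260, also called GH3.5) were chosen with earlier results of these data known. Their probe sets were taken by RefSeq symbol, from those that the annotation assigns to 1 gene each, and each gene has 1 probe set. The 2 genes stand among 13286 genes with a named probe set. Both lie on chromosome 4. Each had a signal on all 4 arrays, but detection calls were not used here, so a low signal does not show that the transcript was present.

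Transcripts of Arabidopsis thaliana seedlings aged 3 weeks were measured on single-channel Affymetrix arrays. There were 4 groups with 1 array each: erf6-1 under high light, erf6-1 untreated, Col-0 wild type under high light and Col-0 wild type untreated. High light was 2000 µmol m-2 s-1 for 2 h, and erf6-1 is a mutant in the Col-0 background of ERF6, an ethylene response factor that activates or represses other genes. The study asked which genes ERF6 controls under oxidative stress and high light. The mutant is represented by a single allele, and the light level of the untreated plants and any pooling of plants are not given in the sources used here. With 1 array per group no value has a replicate error, and nothing below goes beyond these 4 arrays.

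Auxin acts by bringing Aux/IAA repressors to the TIR1/AFB receptors, which mark them for degradation and so free the ARF transcription factors to switch on their targets. Among these targets are genes that damp the signal again, the Aux/IAA repressors themselves and the GH3 enzymes, which join auxin to amino acids and so remove it from the active pool. IAA29 is an Aux/IAA repressor, and is also known as a target of the phytochrome-interacting factors, which promote growth in shade and warmth. WES1 is a GH3 enzyme that conjugates auxin and can act on salicylic acid too.

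The tissue and the depth of the data were as follows. The 2% trimmed mean signal lay between 493 and 495 on all arrays, but the medians differed: they were 207 for erf6-1 under high light and 321 for erf6-1 untreated, and 208 for wild type under high light and 279 for wild type untreated. A free-text note in the sample records speaks of embryos, which is at odds with seedlings. Of 10 leaf markers 4 had a named probe set and all were above the floor on every array. None of 10 seed and embryo markers had a named probe set, so the embryo note could not be checked against them. The leaf signals summed to 96988.2 in high-light and 131356.0 in untreated erf6-1, and to 87992.5 in high-light and 198370.5 in untreated wild type. Of 8 root markers, 3 had a named probe set. Their sums, nearly all PYK10, were 18558.7 in high-light and 22632.0 in untreated erf6-1, and 16616.2 in high-light and 29569.8 in untreated wild type. Of 6 pollen markers, 2 had a named probe set, both under the floor on every array except that AGL66 had 331.5 in untreated wild type. The leaf and root sums were thus lower under high light in each genotype, though not for every member: LHCB4.1 had 15556.4 in high-light against 12610.0 in untreated erf6-1, and EXPA18 403.5 in high-light against 265.5 in untreated wild type. The root hair genes EXPA7 and EXPA18 were 5.33-fold and 4.34-fold lower under high light in erf6-1, where PYK10 was 1.17-fold lower. The part of these markers in the results for IAA29 and WES1 was not tested. In whole seedlings fewer cells of a type and less RNA per cell cannot be told apart.

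IAA29 was lower after high light in both genotypes, with a signal that lay under the floor used here on both high-light arrays. The floor is a signal of 100, the 30th percentile of all values, under which signals were not ranked. IAA29 had a signal of 22.6 in high-light erf6-1, against 569.8 in untreated erf6-1. For wild type the signal was 50.7 under high light, against 466.8 in untreated plants. Both untreated signals were therefore above the floor and both high-light signals under it.

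Since the high-light signals were under the floor, the folds are bounds. High light left IAA29 at least 5.70-fold lower in erf6-1 (log2 difference -2.51) and at least 4.67-fold lower in wild type (log2 difference -2.22). These sizes depend on where the floor is put. Without a floor the log2 differences were -4.66 in erf6-1 and -3.20 in the wild type, and with the floor at the 40th percentile they were -1.77 and -1.49, all past the 2-fold limit used for a call.

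WES1 was also lower after high light in both genotypes, and here all signals were above the floor. It had a signal of 409.7 in high-light erf6-1, against 1294.3 in untreated erf6-1. Wild-type plants gave 449.9 in high light, against 1734.3 without treatment. The high-light signals were again both below the untreated ones, and how often this held over all probe sets was not counted. The difference was 3.16-fold in erf6-1, at -1.66 on the log2 scale, and 3.85-fold in the wild type, at -1.95.

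**Figure D1:**
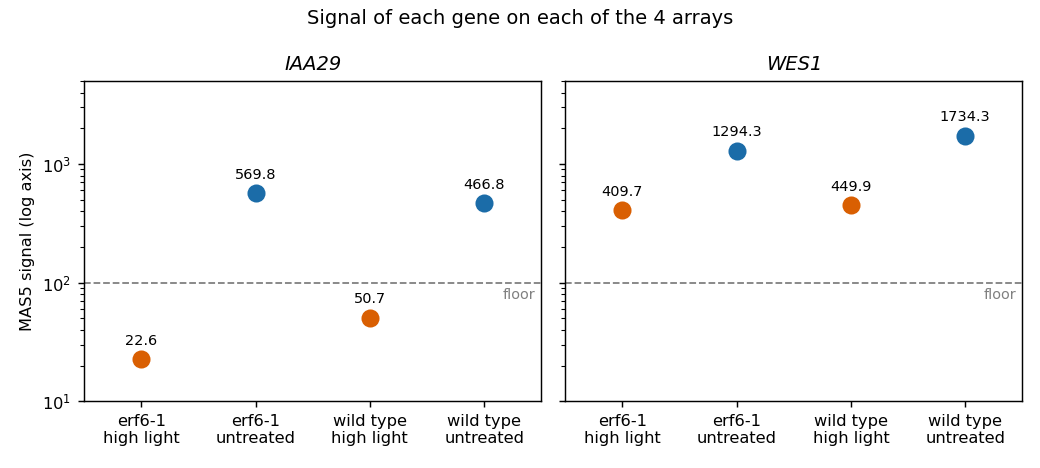
MAS5 signal (log axis) of IAA29 and WES1 on each of the 4 arrays, 1 point per array, with high light in orange, untreated plants in blue and the floor of 100 as a dashed line. For both genes the orange points lie below the blue ones in each genotype, and for IAA29 they lie under the floor.

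Many other probe sets were lower under high light as well, and the calls have to be read against them. Since IAA29 and WES1 were chosen with earlier results of these data known, the shares here and below are background, not a test. Of 17173 probe sets whose highest array reached the median of all values (248.6, the filter on dim probe sets), 29.8% were at least 2-fold lower under high light in erf6-1 and 23.9% in wild type. In both genotypes 9.46% were 2-fold lower, 1625 probe sets, which are 31.7% of those lower in erf6-1 and 39.6% of those lower in the wild type. The median log2 difference of all these probe sets was -0.22 for erf6-1 and -0.13 for wild type. These counts depend on the scaling of the arrays: in erf6-1 2873 probe sets were 2-fold higher and 5122 lower as deposited, against 5098 higher and 2881 lower when all arrays were set to the same median. For wild type 2455 were higher and 4103 lower as deposited, against 4007 higher and 2591 lower with equal medians. IAA29 passed the filter only through its untreated arrays, which favours a lower value under high light, whereas WES1 reached it on every array.

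A second background took the brightness of each gene into account. All probe sets were ranked by mean log2 signal and split into 5 equal classes, and IAA29 fell in the middle class and WES1 in the brightest. In the class of IAA29, 43.2% of probe sets past the filter were 2-fold lower in erf6-1 after high light, 35.7% in the wild type and 20.2% in both. In the class of WES1 the shares were 6.86% in erf6-1, 8.02% in the wild type and 3.23% in both. A 2-fold lower signal in both light responses was thus common at the brightness of IAA29 and uncommon at that of WES1. The mean takes in the high-light arrays, so a lower signal there also moves a probe set towards a dimmer class. The class shares are therefore not independent of the light response.

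The starting level gave another view. For IAA29, 638 probe sets had untreated signals within 20% of its own in both genotypes, itself included. Of these 23.7% were 2-fold lower in both light responses and 5.33% were, like IAA29, under the floor on both high-light arrays. For WES1, 282 probe sets had untreated signals within 20% of its own in both genotypes. Of these 4.96% were 2-fold lower in both light responses. With the untreated signal matched in 1 genotype at a time, 21.1% of 1314 probe sets near WES1 were 2-fold lower in erf6-1. In the wild type 12.7% of 741 were. Near IAA29 these shares were 47.6% of 3260 in erf6-1 and 40.8% of 3007 in the wild type. Of the same probe sets near IAA29, 20.6% in erf6-1 and 17.4% in the wild type were under the floor after high light. Each share of 2-fold lower probe sets was again larger at the level of IAA29 than at that of WES1.

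**Figure D2:**
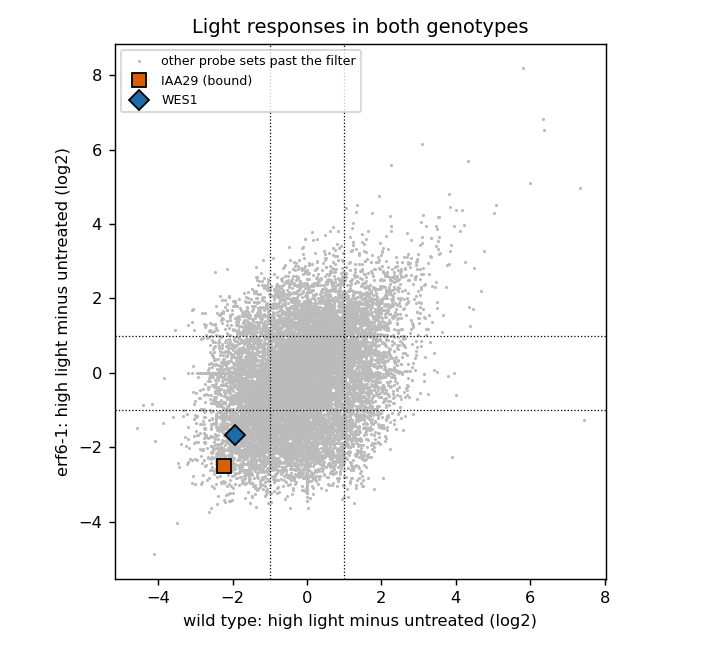
Log2 difference of high light minus untreated in erf6-1 (vertical axis) against the same in the wild type (horizontal axis) for 17173 probe sets past the filter, with dotted lines at 2-fold. IAA29 (square, at a bound of -2.51 and -2.22) and WES1 (diamond, at -1.66 and -1.95) lie in the corner where both responses are 2-fold lower, with 9.46% of probe sets.

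Scaling did not remove either call. Setting all arrays to the same median moved the median light response of all probe sets to 0.33 in erf6-1 and to 0.17 in the wild type. WES1 was then 2.04-fold lower in high-light erf6-1, barely past the limit, at a log2 difference of -1.03, which lies 1.35 under that median. Its wild-type value was -1.52. After quantile normalisation WES1 was at -1.61 in erf6-1 and at -1.86 in the wild type. IAA29 was at a bound of -2.13 in erf6-1 and -2.04 in the wild type with equal medians, and at -2.26 and -2.11 after quantile normalisation.

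**Figure D3:**
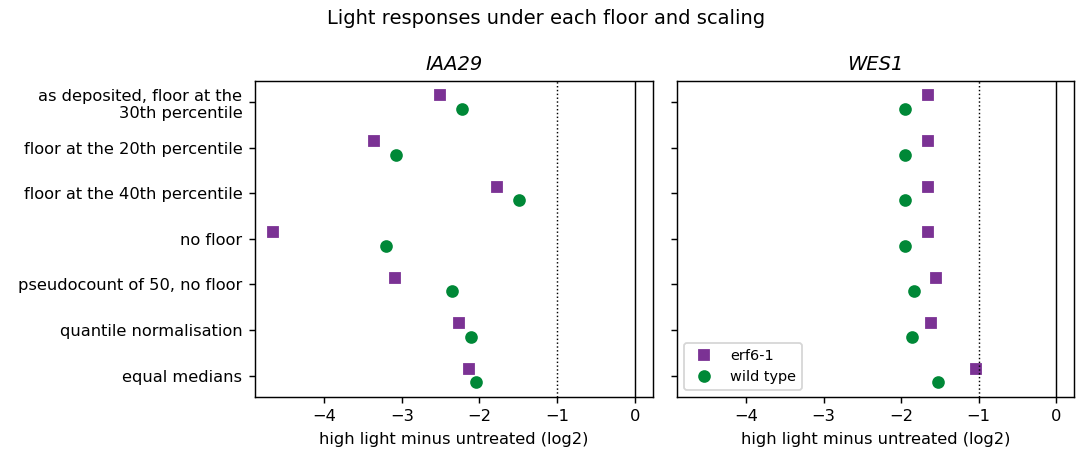
Log2 difference of high light minus untreated for IAA29 (left) and WES1 (right) in erf6-1 (squares) and wild type (circles) under each floor and scaling, with a dotted line at 2-fold lower. Every point lies beyond the line, and WES1 in erf6-1 with equal medians, at -1.03, lies nearest to it.

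The genotypes were then compared within each light condition. After high light, WES1 had a signal of 409.7 in erf6-1 and 449.9 in wild type, which differ by -0.14 on the log2 scale. IAA29 was under the floor in both genotypes after high light, so no fold is given. Without treatment, IAA29 had a signal of 569.8 in erf6-1 and 466.8 in the wild type, 1.22-fold higher in erf6-1, and WES1 had 1294.3 in erf6-1 and 1734.3 in the wild type, 1.34-fold lower. None of these 3 differences reached 2-fold, whereas 13.6% of probe sets past the filter did so either way after high light and 43.3% did so without treatment. At like brightness such differences were rarer for WES1, with 2.97% of its class after high light and 11.7% untreated, and 55.1% untreated in the class of IAA29, so that small genotype differences were the usual case at the brightness of WES1.

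In order from low to high, IAA29 had both high-light arrays, which have no order under the floor, then untreated wild type and untreated erf6-1. For WES1 the order was erf6-1 in high light, wild type in high light, untreated erf6-1 and untreated wild type. The gap between the light conditions was the widest in both orders, but how often this held over all probe sets was not counted. With no replicates, it is not known which neighbours in these orders differ beyond their spread.

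The light response of WES1 differed between the genotypes by 0.29 on the log2 scale, taken as erf6-1 minus wild type, or 1.22-fold. In 47.3% of probe sets past the filter this difference was 2-fold or more either way, and in 15.1% of the brightness class of WES1. For IAA29 both responses are bounds, and their difference has no value. Without a floor it would be -1.45, from signals of 22.6 and 50.7 that were not ranked here.

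The relatives of IAA29 and WES1 did not all share their pattern. Of 34 Aux/IAA repressors, 7 had a named probe set and 3 passed the filter. Beside IAA29 these were IAA18 and IAA34, a member of the divergent group without the usual degradation motif. IAA18 had a signal of 695.3 in high-light erf6-1 against 548.6 in untreated erf6-1, and 756.6 in wild type under high light against 436.8 untreated, so that it was higher after high light in both genotypes, by less than 2-fold. IAA34 had 271.4 in high-light erf6-1 against 451.2 in untreated erf6-1, a log2 difference of -0.73. Wild-type IAA34 had 22.7 in high light against 330.6 untreated, at least 3.31-fold lower. IAA20, IAA30, IAA31 and IAA33 did not pass the filter. Of the 3 measured repressors, 1 was 2-fold lower in erf6-1 and 2 in the wild type, with medians of -0.73 and -1.73. IAA29 is counted in both, and the background shares are 29.8% and 23.9%, so nothing about the family is read from these counts.

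Of 24 GH3 enzymes listed, 5 had a named probe set and 3 passed the filter: WES1, GH3.9 and GH3.17, which conjugates auxin to glutamate. GH3.9 had a signal of 303.3 in high-light erf6-1 against 342.8 in untreated erf6-1, and 297.6 for wild type under high light against 252.9 untreated. GH3.17 had 954.7 in high-light erf6-1 against 1497.8 in untreated erf6-1, a log2 difference of -0.65. Wild-type GH3.17 had 1005.9 in high light against 661.8 untreated, a log2 difference of 0.60. As deposited, WES1 was thus the only GH3 gene of these 3 at least 2-fold lower in either genotype. The background shares are 29.8% in erf6-1 and 23.9% in the wild type, so nothing about the family is read from this count. With equal medians GH3.17 was 2-fold higher in the wild type. GH3.3, with signals of 183.6 in high-light and 229.6 in untreated erf6-1 and of 66.2 in high-light and 162.0 in untreated wild type, and GH3.1, under the floor on all 4 arrays, did not pass the filter.

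**Figure D4:**
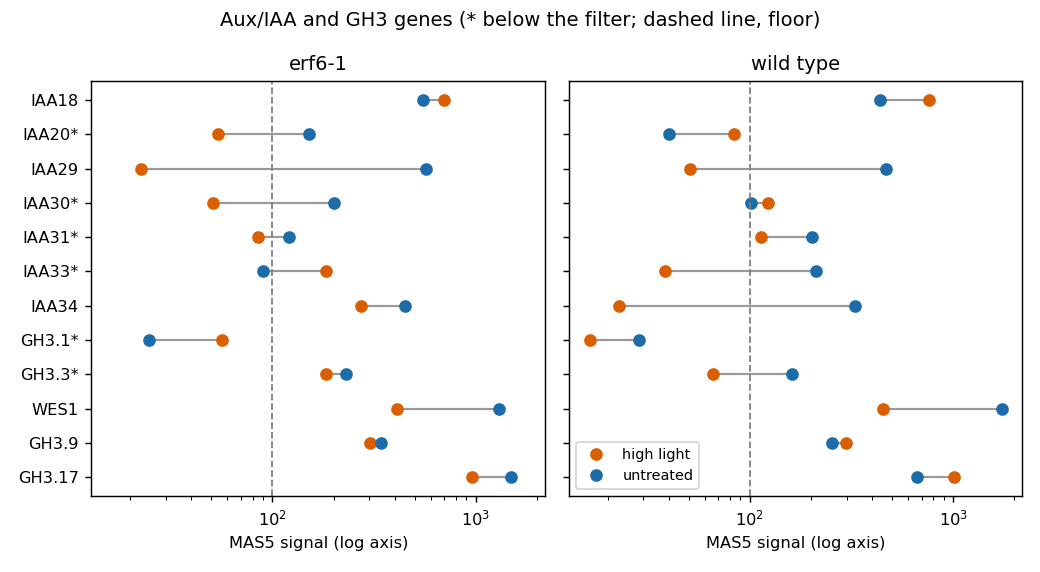
MAS5 signals (log axis) of the Aux/IAA and GH3 genes with a named probe set in erf6-1 (left) and wild type (right), with high light in orange and untreated plants in blue joined by a line for each gene. WES1 and IAA29 have orange points left of blue ones in both panels, as have IAA31, IAA34 and GH3.3, whereas IAA20, IAA30, IAA33, GH3.1, GH3.9 and GH3.17 change sides between the panels and IAA18 has its orange point on the right in both. Asterisks mark genes that did not pass the filter, and the dashed line is the floor of 100. Both points of GH3.1 in each panel and of IAA20 in the wild type lie under the floor, so their sides there are not read.

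The rest of the auxin pathway was sparsely covered. Of 9 auxin lists, the SAUR genes, ARF factors, receptors and transporters had no named probe set. Over all 9 lists, 10 genes other than IAA29 and WES1 passed the filter. As deposited, 2 of these 10 were 2-fold lower or more under high light in erf6-1 and 3 in wild type, and none was 2-fold higher. Over all probe sets past the filter 29.8% and 23.9% were lower and 16.7% and 14.3% higher, so the shares of lower genes lie near the background. YUC2, UGT84B1 and LBD16, like IAA29, passed the filter only through untreated arrays, which favours a lower value under high light. The median log2 difference of the 10 was -0.09 for erf6-1 and 0.15 for wild type, against -0.22 and -0.13 over all probe sets past the filter. With equal medians 1 was higher in erf6-1, XTH19, and 2 in the wild type, IAA18 and GH3.17, with medians of 0.23 and 0.51. With the floor at the 40th percentile, the wild-type calls of IAA34 and UGT84B1 were lost.

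Among these 10, only YUC2, a flavin monooxygenase of auxin synthesis, was 2-fold lower in both genotypes as deposited. Over all probe sets past the filter 9.46% were, and 20.2% in the brightness class of IAA29, which also holds YUC2. Nothing is therefore read from this count. YUC2 had a signal of 70.2 in high-light erf6-1 against 418.5 in untreated erf6-1, at least 4.18-fold lower. Wild-type YUC2 had 182.1 in high light against 369.3 untreated, 2.03-fold lower, a call lost after quantile normalisation, with equal medians and with the pseudocount. The untreated arrays were high for YUC2 and the high-light arrays low, as for IAA29.

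The other list members went separate ways. UGT84B1, which joins glucose to auxin, had 33.7 in wild type under high light against 312.3 untreated, at least 3.12-fold lower. In erf6-1 UGT84B1 was under the floor in both light conditions, at 23.6 in high light and 87.3 untreated. UGT74D1, another auxin glucosyltransferase, had 1267.0 in high-light and 1005.0 in untreated erf6-1, and 978.2 in high-light and 931.0 in untreated wild type. LBD16, a factor of lateral root initiation, had 22.2 in high-light erf6-1 against 613.7 in untreated erf6-1, at least 6.14-fold lower. Wild-type LBD16 had 121.9 in high light against 71.4 untreated, so it was low on 3 arrays and high on 1. The auxin-induced homeobox gene HAT2 had log2 differences of 0.34 in erf6-1 and -0.59 in the wild type, and the cell wall enzyme gene XTH19 0.75 and 0.51.

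Genes of the neighbouring pathways could be followed in few cases. The only shade gene with a named probe set, FHL, did not pass the filter, and no phytochrome, cryptochrome or phytochrome-interacting factor had one. WRKY53, the only salicylic acid gene measured, had a signal of 292.5 in erf6-1 under high light against 32.1 in untreated erf6-1, at least 2.92-fold higher. Wild-type WRKY53 had 99.7 in high light and 305.7 untreated, at least 3.06-fold lower. Of 9 genes listed as high-light markers, STZ and COR15A had a named probe set, and both passed the filter. STZ was 3.87-fold higher under high light in erf6-1 and 4.97-fold higher in wild type. COR15A, under the floor in untreated plants of both genotypes, was at least 92.8-fold higher in erf6-1 and 82.3-fold higher in wild type. It passed the filter only through high-light arrays, which favours a higher value. Over all probe sets past the filter 16.7% were 2-fold higher in erf6-1 and 14.3% in wild type. This list was chosen with earlier results of these data known, so it is no check of the treatment.

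The genes with the most similar pattern were found by centring each gene's log2 signals on their mean, with values under the floor raised to it, and taking the root mean square difference over the 4 arrays. For WES1 the nearest of 9708 named probe sets was BCAT4, an enzyme of glucosinolate synthesis, at 0.040. BCAT4 had a signal of 2095.0 in high-light erf6-1 against 7110.6 in untreated erf6-1, and 2452.3 for wild type under high light against 9356.9 untreated. AT4G16850, AT3G03060, AT2G35310 and AT2G26520 followed, at 0.042 to 0.050, and of these AT2G35310 alone was above the floor on all 4 arrays. For IAA29 the nearest was TBL42, of a family of proteins that acetylate cell wall polysaccharides, at 0.025, with signals of 21.4 in high-light and 555.3 in untreated erf6-1 and of 25.4 in high-light and 477.7 in untreated wild type. AT2G05030, AT4G17810, AT2G24350 and AT5G28200 came next, at 0.041 to 0.061. The floor sets both high-light values of IAA29, and this holds for each of these 5 genes except AT4G17810, whose high-light signals were 172.3 in erf6-1 and 174.4 in wild type. WES1 itself would rank 309 in likeness to IAA29, at 0.380.

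Of the 4 chromosomal neighbours, AT4G27250 alone was lower after high light in both genotypes, in wild type by less than 2-fold with the floor. Over all probe sets past the filter 9.46% were 2-fold lower in both, and nothing is read from 4 genes. On either side of WES1 stand AT4G27250 and AT4G27270. AT4G27250 had signals of 118.8 in high-light and 323.6 in untreated erf6-1, and of 43.4 in high-light and 191.9 in untreated wild type, a log2 difference of -1.45 in erf6-1 and a bound of -0.94 in wild type. AT4G27270 had 166.1 in high-light against 771.3 in untreated erf6-1, but 220.9 in high-light against 29.9 in untreated wild type. Beside IAA29, the nearest measured genes were AT4G32270 and AT4G32290. AT4G32270 had 333.3 in high-light and 42.6 in untreated erf6-1, and 170.1 in high-light and 364.3 in untreated wild type, whereas AT4G32290 had 229.8 and 93.0 in erf6-1 and 288.4 and 283.2 in the wild type. Neither neighbour of IAA29 was lower after high light in both genotypes.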

How the data were processed

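MAS5 signals were deposited by the authors on a linear intensity scale. MAS5 is named in the submitters' processing notes, without a version. Signals under 100, the 30th percentile over the 4 arrays together, were set to 100, and log2 values were then computed. The filter asked that at least 1 array reach 248.6, the median over all arrays. Differences were called at 2-fold. Probe sets were named through GEO's platform annotation and the RefSeq gene table (assembly TAIR10.1): of 22746 probe sets, 13513 had 1 gene, 503 several and 8730 were not listed, and 13436 of the first matched a current gene. Genes were matched to lists by symbol or synonym. AUR3 was dropped from the GH3 list after matching, since the symbol belongs to an Aurora kinase gene.

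Groups were taken from sample titles. No test was made, and the number of arrays sets the precision. A model with genotype and light as additive terms over the 4 arrays would leave 1 residual degree of freedom and count any difference between the light responses as error. Genes to be named were the list members that passed the filter, the 5 nearest patterns for each gene and the nearest measured genes on either side. IAA29, WES1 and the lists were chosen with earlier results of these data known. The comparison at like untreated signal was added to the plan. The genes that did not pass the filter, where named, were chosen after their values were seen. The computation was checked on simulated data with changes planted in bright probe sets only. That check does not bear on dim signals such as those of IAA29 under high light. Alternatives were 2 other floors, none, a pseudocount of 50, quantile normalisation, equal medians and, for counts, 2 other filters. No promoter or protein sequences were used here. Python 3.11.15, pandas 2.3.3 and numpy 2.4.6 were used.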

Additional observations from a re-analysis of the deposited data

Results flagged for a closer look

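Of 23 list genes that passed the filter, 4 had light responses of opposite sign in erf6-1 and the wild type that were at least 2-fold apart. Such opposite responses 2-fold apart were found for 23.5% of all probe sets past the filter. GH3.17 differed by -1.25 on the log2 scale (erf6-1 minus wild type). LBD16 was at -2.90, a bound, and the root hair expansin EXPA18 at -2.72, whose signals were 101.8 in high-light and 442.0 in untreated erf6-1, and 403.5 in high-light and 265.5 in untreated wild type. WRKY53 was at 3.16, also a bound. For both, each response is a bound in its own direction, so the difference is at least this large. The differences were not tested.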

How the results depend on the processing

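The light responses of IAA29 and WES1 stayed at least 2-fold lower in both genotypes under both other floors, without a floor, with the pseudocount, after quantile normalisation and with equal medians. IAA29 ranged from -4.66 to -1.77 in erf6-1 and from -3.20 to -1.49 in the wild type, and WES1 from -1.66 to -1.03 and from -1.95 to -1.52. The genotype differences of WES1 and of untreated IAA29 stayed under 2-fold in all of these. For IAA29 after high light no fold was given, but without a floor the genotype difference was -1.17 and the difference between responses -1.45, and with the pseudocount they were -0.47 and -0.73; both signals are dim, and the cause was not tested. With equal medians the counts of 2-fold lower probe sets were 2881 in erf6-1 and 2591 in the wild type, against 5122 and 4103 as deposited. A filter at the 75th percentile left fewer probe sets to count, with 2000 and 1586 lower, 794 that differed between genotypes after high light against 2336, and 2743 untreated against 7444. The count after high light was 3579 with the floor at the 20th percentile, 1057 at the 40th and 4633 without a floor. A fit of light with genotype as a block would leave 1 residual degree of freedom and was not made.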
